A study of Mus musculus with 18 samples.

Results

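The genes described here make up the protein-folding machinery of the endoplasmic reticulum (ER) and the unfolded protein response that adjusts it. They are 33 genes chosen by name: ER chaperones, thiol oxidoreductases, the machinery of ER-associated degradation (ERAD), and the sensors and transcription factors of the response. Their probes were found through the gene symbol in the array's annotation, which gave 58 of 45281 probes and covered 32 of the 33 genes. Dnajb11 had no probe under its symbol. Canx, Manf, Derl1 and Derl3 had no probe above the background level on 3 or more arrays, so 28 members were measured and carry the results.

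The cells were 3T3-L1 adipocytes, fat cells made in culture from a mouse preadipocyte line over 7 days of differentiation. They were treated for 24 hours with rosiglitazone at 100 nM, the sodium salt of diclofenac at 25 µM, indomethacin or GQ16 at 10 µM, ibuprofen at 75 µM, or the vehicle DMSO. Rosiglitazone is an agonist of PPARγ, the nuclear receptor that drives fat-cell differentiation; diclofenac, indomethacin and ibuprofen are non-steroidal anti-inflammatory drugs that inhibit cyclooxygenases, and GQ16 is a PPARγ ligand known by its code name. Each group had 3 samples, each hybridised to 1 Illumina mouse BeadChip array, for 18 arrays. Every sample came from a single cell line, and each compound was used at 1 dose and 1 time. The labels do not say whether the samples of a group were separate cultures, so the spread that p-values rest on may be only technical.

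Proteins that enter the ER are folded with the help of Hspa5 (BiP), Hsp90b1 (GRP94), the lectins calnexin and calreticulin and the disulfide isomerases, and those that fail are moved back to the cytosol and degraded. When unfolded proteins build up, the sensors Ern1 (IRE1α), Eif2ak3 (PERK) and Atf6 start the unfolded protein response. Ern1 splices the Xbp1 message into the form that encodes an active transcription factor, Atf6 is itself cleaved into one, and Eif2ak3 slows translation and raises the factor ATF4. Adipocytes secrete large amounts of adiponectin and other proteins and pass them through this pathway.

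The promoters of several members hold a motif for which this gene family is known, the ER stress response element (ERSE), with the letters CCAAT, any 9 bases and then CCACG. Its CCAAT part binds NF-Y and its CCACG part binds Atf6 or Xbp1. A shorter form, ERSE-II, has the letters ATTGG, any 1 base and then CCACG. RefSeq promoter windows on GRCm38.p6, from 250 bases before to 50 bases after each gene's start, were matched for 29 of the 33 members and searched on both strands. ERSE was found in 10 of the 29 members (34.5%), against 37 of 27025 genes (0.137%), and ERSE-II in Dnajb11 and Herpud1, 2 members (6.90%), against 12 genes (0.0444%). The element was first defined in genes of this kind, so its frequency among the members is not an independent observation. The 4 stretches below belong to members on which the results turn or that define the pathway, with each ERSE or ERSE-II match in capitals. All sequences are printed 5′ to 3′ along the gene's own strand and end upstream of the start.
Hspa5 (chr2:34771980-34772059, plus strand): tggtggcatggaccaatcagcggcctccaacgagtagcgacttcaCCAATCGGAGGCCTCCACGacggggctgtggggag
Hsp90b1 (chr10:86705525-86705664, minus strand): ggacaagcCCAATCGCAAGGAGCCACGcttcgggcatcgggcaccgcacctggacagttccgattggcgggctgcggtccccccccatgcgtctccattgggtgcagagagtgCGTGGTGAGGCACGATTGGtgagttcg
Calr (chr8:84847032-84847111, minus strand): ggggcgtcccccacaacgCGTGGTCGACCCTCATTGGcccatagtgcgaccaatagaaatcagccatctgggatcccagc
Herpud1 (chr8:94386339-94386408, plus strand): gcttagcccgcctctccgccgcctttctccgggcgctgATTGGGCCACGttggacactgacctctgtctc
Hsp90b1 holds 2 matches in opposite orientations, the second of which reads as the reverse complement. Calr also carries its match in reverse, and in Herpud1 the match is the ERSE-II form.

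The other members that differed among the groups hold neither full element in their windows, and CCAAT on its own was not searched. They do hold the CCACG part. It is 5 letters long, lies inside both longer motifs and is common: it was found in 25 of 29 members (86.2%) and in 35.5% of all genes' windows. The next 3 stretches show it in capitals, on either strand, for comparison with the full elements above.
Sdf2l1 (chr16:17132519-17132598, minus strand): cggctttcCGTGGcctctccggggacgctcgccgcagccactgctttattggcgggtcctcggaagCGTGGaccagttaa
Edem1 (chr6:108828396-108828455, plus strand): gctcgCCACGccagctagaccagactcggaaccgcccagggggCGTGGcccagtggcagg
Sel1l (chr12:91849278-91849337, minus strand): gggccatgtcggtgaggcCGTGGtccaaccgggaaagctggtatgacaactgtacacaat
No member's window held TGACGTGG, the core of the unfolded protein response element, which was present in 0.714% of all genes' windows. None held a PPARγ response element, searched as AGGTCA repeated after any 1 base, against 0.0481% of all windows, or TGATGNAAT, an ATF4 element, against 1.08%. A match is a description of these letters, not a binding site, and a missing match says nothing of the factor's action.

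Values are the authors' log2 intensities, which set 1 gene's groups against each other but not 1 gene against another. All arrays had been brought to the same distribution, and on each of them 42.1% of probes were above the background level of 6.18. The arrays came from 3 slides: the 3 ibuprofen arrays were all on slide 2, which held 1 DMSO array, and slide 3 held no DMSO array. Over all genes, rosiglitazone replicate 1 lay 0.286 log2 units (root mean square) from its group's mean and DMSO replicate 3 lay 0.207, each the farthest in its group. Of 10 adipocyte markers, 9 were measured, with a mean of 11.85 to 12.14 on every array. Their median difference from DMSO was 0.168 with rosiglitazone, 0.167 with diclofenac, 0.215 with indomethacin, 0.171 with ibuprofen and 0.108 with GQ16. In limma's tests against DMSO, 1 was higher and 1 lower with rosiglitazone, 1 higher and 1 lower with ibuprofen, and 1 lower with indomethacin. Of 10 preadipocyte and fibroblast markers, 9 were measured, and their mean was 8.78 to 8.94 with rosiglitazone, 9.10 to 9.25 with diclofenac, 8.93 to 8.95 with indomethacin, 8.89 to 8.96 with ibuprofen and 9.19 to 9.49 with GQ16, against 9.41 to 9.71 with DMSO. Above background were 2 of 8 macrophage markers (Csf1r and Cd14) and 2 of 4 endothelial markers (Kdr and Tek). In these bulk samples fewer cells of a type and less RNA per cell cannot be told apart. The part of these marker differences in the results below was not tested.

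Among the 6 groups, 5 of the 28 measured members differed by the F test of limma, at an adjusted p under 0.05: the lectin chaperone Calr, the ERAD genes Herpud1, Edem1 and Sel1l, and the co-chaperone Sdf2l1. Their share, 17.9%, stood beside 18.5% of all 10952 genes tested, so the members as a list differed about as often as genes in general. The 5 did not share a pattern. Calr and Edem1 were highest with ibuprofen, Herpud1 with GQ16, Sel1l with indomethacin and Sdf2l1 with diclofenac. Across the 28 members the range of the 6 group means had a median of 0.401 log2 units, beside a median standard deviation (SD) within groups of 0.159.

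**Figure D1:**
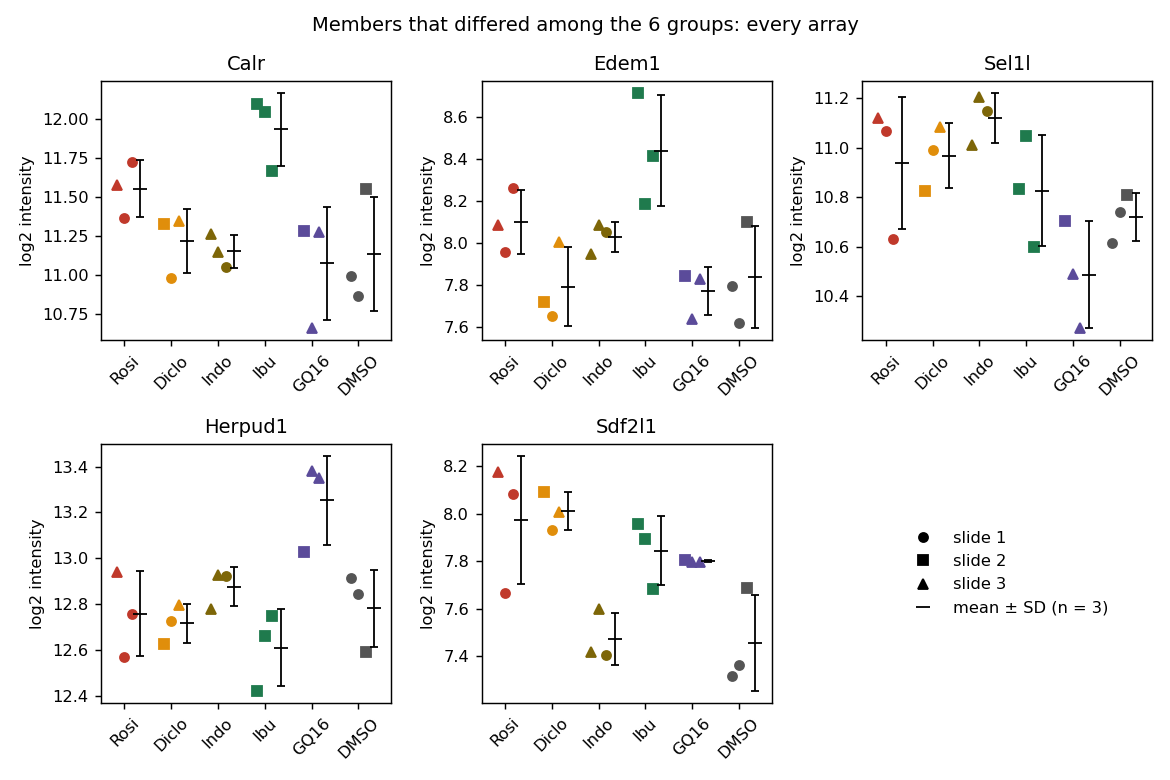
Log2 intensity (vertical axis) of Calr, Edem1, Sel1l, Herpud1 and Sdf2l1 on every array, by treatment; marker shape gives the slide, and bars are the mean ± SD of the 3 arrays. Calr and Edem1 stand highest with ibuprofen, all of whose arrays were on slide 2, Herpud1 with GQ16 and Sel1l with indomethacin.

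Calr encodes calreticulin, the soluble lectin that holds glycoproteins carrying a single glucose and also stores calcium in the ER. Its log2 intensity was 11.57, 11.36 and 11.72 under rosiglitazone, 11.32, 10.98 and 11.34 under diclofenac, 11.26, 11.14 and 11.05 under indomethacin, 12.09, 12.04 and 11.67 under ibuprofen, 11.28, 10.66 and 11.28 under GQ16, against 10.99, 10.86 and 11.55 under DMSO. The ibuprofen arrays were all above every DMSO array, and DMSO replicate 3, the DMSO array that shared their slide, was the highest of the DMSO arrays. Ibuprofen minus DMSO was 0.80 ± 0.18 (standard error, SE; n = 3 each), a 1.74-fold difference, with an adjusted p of 0.00727. With slide as a block it was 0.49 with an adjusted p of 0.169, and within slide 2 it was 0.38, so the size and the call both depended on arrays of different slides. The call was also lost without DMSO replicate 1 or without DMSO replicate 2, at an adjusted p of up to 0.0674. Without DMSO replicate 3 the difference was 1.01 (adjusted p = 0.000872), but no DMSO array then remained on the ibuprofen slide. With rosiglitazone Calr stood 0.42 ± 0.18 above DMSO (adjusted p = 0.116), and this difference passed the test with slide as a block, at 0.51 and an adjusted p of 0.0342. Without both rosiglitazone replicate 1 and DMSO replicate 3 it was 0.61, with an adjusted p of 0.0297.

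Edem1 recognises misfolded glycoproteins whose mannoses have been trimmed and hands them to ERAD. It read 8.09, 7.96 and 8.26 under rosiglitazone, 7.72, 7.65 and 8.01 under diclofenac, 7.95, 8.09 and 8.06 under indomethacin, 8.72, 8.19 and 8.42 under ibuprofen, 7.84, 7.64 and 7.83 under GQ16, against 7.79, 7.62 and 8.10 under DMSO. As with Calr, the ibuprofen arrays lay above all DMSO arrays, and DMSO replicate 3 was the closest of these. Ibuprofen minus DMSO was 0.60 ± 0.16, or 1.52-fold, with an adjusted p of 0.0198. With slide as a block the difference was 0.48 (adjusted p = 0.182), and within slide 2 it was 0.34. It was also lost without ibuprofen replicate 1 or 3, or DMSO replicate 1 or 2, with an adjusted p of up to 0.143.

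Sdf2l1 works with Hspa5 and its J-domain partner Dnajb11 to keep client proteins from aggregating. Its values were 8.18, 7.67 and 8.08 under rosiglitazone, 8.09, 7.93 and 8.01 under diclofenac, 7.42, 7.60 and 7.40 under indomethacin, 7.96, 7.89 and 7.68 under ibuprofen, 7.81, 7.80 and 7.80 under GQ16, against 7.32, 7.36 and 7.69 under DMSO. The diclofenac arrays and GQ16 arrays were all above the DMSO arrays, while indomethacin lay among them. Rosiglitazone replicate 2 was just below DMSO replicate 3, so those groups overlapped. Sdf2l1 rose by 0.52 ± 0.15 with rosiglitazone (1.43-fold, adjusted p = 0.0173), and the difference was 0.54 with slide as a block (adjusted p = 0.0114) and 0.53 within slide 1. That call was lost without rosiglitazone replicate 1 or 3, or DMSO replicate 1 or 2, with an adjusted p of up to 0.0923. Diclofenac minus DMSO was of the same size, 0.55 ± 0.15, with an adjusted p of 0.0504.

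Herpud1, a membrane protein that organises the ubiquitin ligase complex of ERAD, was highest with GQ16. It read 12.94, 12.57 and 12.76 under rosiglitazone, 12.63, 12.73 and 12.80 under diclofenac, 12.78, 12.93 and 12.93 under indomethacin, 12.42, 12.66 and 12.75 under ibuprofen, 13.03, 13.38 and 13.35 under GQ16, against 12.91, 12.84 and 12.59 under DMSO. The 3 GQ16 arrays lay above all other 15 arrays. GQ16 minus DMSO was 0.47 ± 0.13, with an adjusted p of 0.0581. A second, dimmer probe of Herpud1 gave -0.15 for the same comparison, and the probes therefore disagreed in sign.

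Sel1l is the adaptor that joins substrates to the ligase Syvn1 (HRD1). Its brightest probe read 11.12, 11.07 and 10.63 under rosiglitazone, 10.83, 10.99 and 11.09 under diclofenac, 11.01, 11.21 and 11.15 under indomethacin, 10.83, 11.05 and 10.60 under ibuprofen, 10.70, 10.49 and 10.27 under GQ16, against 10.62, 10.74 and 10.81 under DMSO. The indomethacin arrays were all above the DMSO arrays, and 2 of the 3 GQ16 arrays were below them. Indomethacin minus DMSO was 0.40 ± 0.15 (adjusted p = 0.106). Of the dimmer Sel1l probes, the second-brightest stood 0.72 above DMSO with rosiglitazone (adjusted p = 0.058) and was -0.25 with ibuprofen. The third-brightest rose with rosiglitazone, by 0.81 (adjusted p = 0.00347), and with ibuprofen, by 0.76 (adjusted p = 0.00994), where the brightest gave 0.22 and 0.11. The Sel1l probes thus put different compounds highest.

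**Figure D2:**
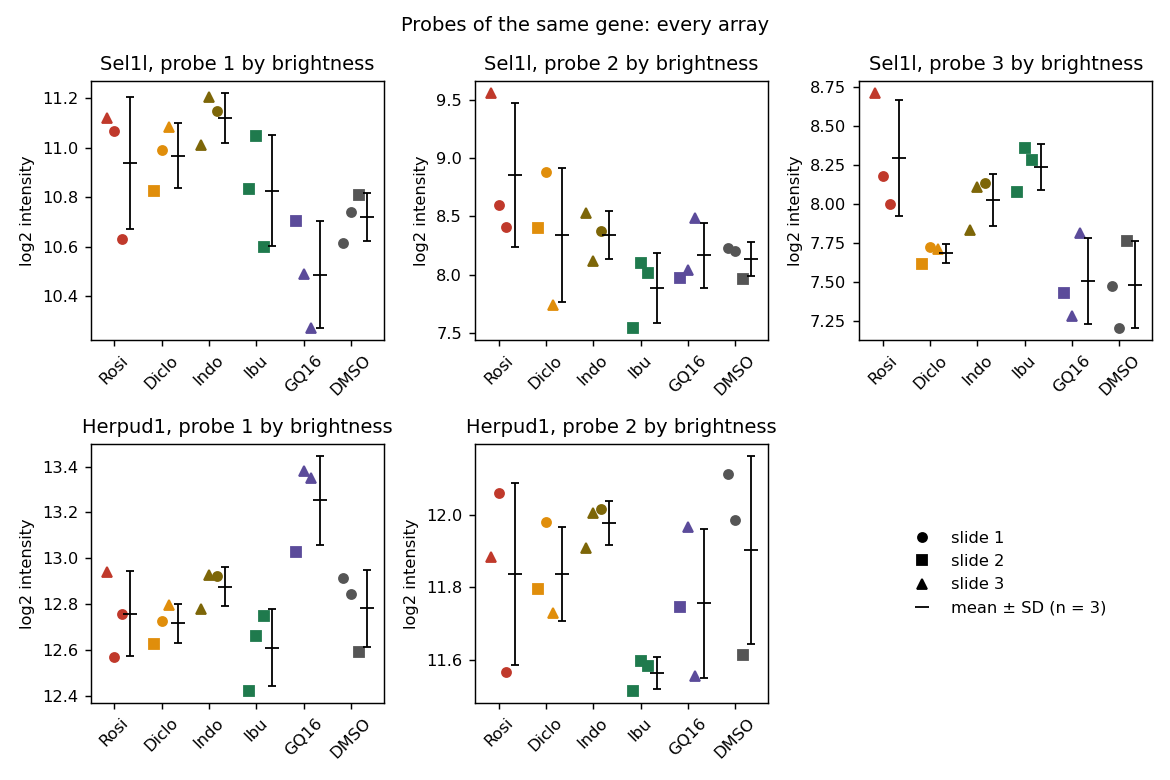
Log2 intensity (vertical axis) by treatment for the 3 brightest probes of Sel1l and the 2 probes of Herpud1, with every array as a point and the mean ± SD as bars. The Sel1l probes put different compounds highest, and the high GQ16 values of the brighter Herpud1 probe are not seen in the dimmer one.

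The chaperones that are most often used to read the response did not pass the test against DMSO. Hspa5, the Hsp70 of the ER lumen and the protein that holds the sensors inactive, read 9.29, 8.80 and 9.16 under rosiglitazone, 9.10, 8.68 and 8.83 under diclofenac, 8.73, 8.36 and 8.69 under indomethacin, 8.76, 9.37 and 9.14 under ibuprofen, 8.89, 8.23 and 8.89 under GQ16, against 8.68, 8.60 and 8.56 under DMSO. All rosiglitazone arrays and all ibuprofen arrays were above the DMSO arrays, while GQ16 replicate 2 was the lowest of all. Rosiglitazone minus DMSO was 0.47 ± 0.20 (adjusted p = 0.0958) and ibuprofen minus DMSO was 0.47 ± 0.20 (adjusted p = 0.134), so neither passed the test.

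Hsp90b1, the Hsp90 of the ER, read 11.59, 12.54 and 12.45 under rosiglitazone, 12.52, 12.59 and 12.30 under diclofenac, 12.66, 12.53 and 12.40 under indomethacin, 11.67, 12.002 and 12.13 under ibuprofen, 11.82, 11.73 and 11.93 under GQ16, against 12.57, 12.60 and 11.59 under DMSO. Rosiglitazone replicate 1 and DMSO replicate 3, each the farthest array of its own group over all genes, were both near 11.59, and the other 2 arrays of each group lay near 12.5. The groups' differences from DMSO, -0.43 ± 0.22 with GQ16 and -0.32 ± 0.22 with ibuprofen, did not pass the test (adjusted p = 0.335 and 0.409). Without these 2 arrays Hsp90b1 was lower with GQ16 by a log2 difference of -0.76 (adjusted p = 0.00259) and with ibuprofen by -0.65 (adjusted p = 0.00111). DMSO replicate 3 was the DMSO array on slide 2, so leaving it out also leaves ibuprofen with no DMSO array on its slide.

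Dnajb9 (ERdj4) is a J-domain co-chaperone that directs clients to Hspa5 and to ERAD. It read 9.86, 11.70 and 10.51 under rosiglitazone, 10.80, 10.92 and 10.05 under diclofenac, 10.99, 10.81 and 10.78 under indomethacin, 10.09, 10.36 and 10.10 under ibuprofen, 10.002, 9.66 and 10.003 under GQ16, against 10.72, 10.40 and 10.17 under DMSO. The rosiglitazone arrays spanned nearly the whole range of the gene, and the GQ16 arrays lay below all DMSO arrays. GQ16 minus DMSO was -0.54 ± 0.29 (adjusted p = 0.345) and indomethacin minus DMSO was 0.43 ± 0.29 (adjusted p = 0.395). A second, dimmer probe of Dnajb9 gave -0.09 with GQ16 (adjusted p = 0.878) and 0.31 with indomethacin (adjusted p = 0.425). On that probe the GQ16 and DMSO arrays overlapped. The remaining measured chaperones did not pass the F test or any comparison with DMSO. They are Creld2, Dnajc3 (p58IPK, which restrains Eif2ak3) and Hyou1, the nucleotide exchange factor of Hspa5, and their differences lay between -0.30 (Creld2, GQ16) and 0.28 (Hyou1, indomethacin).

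**Figure D3:**
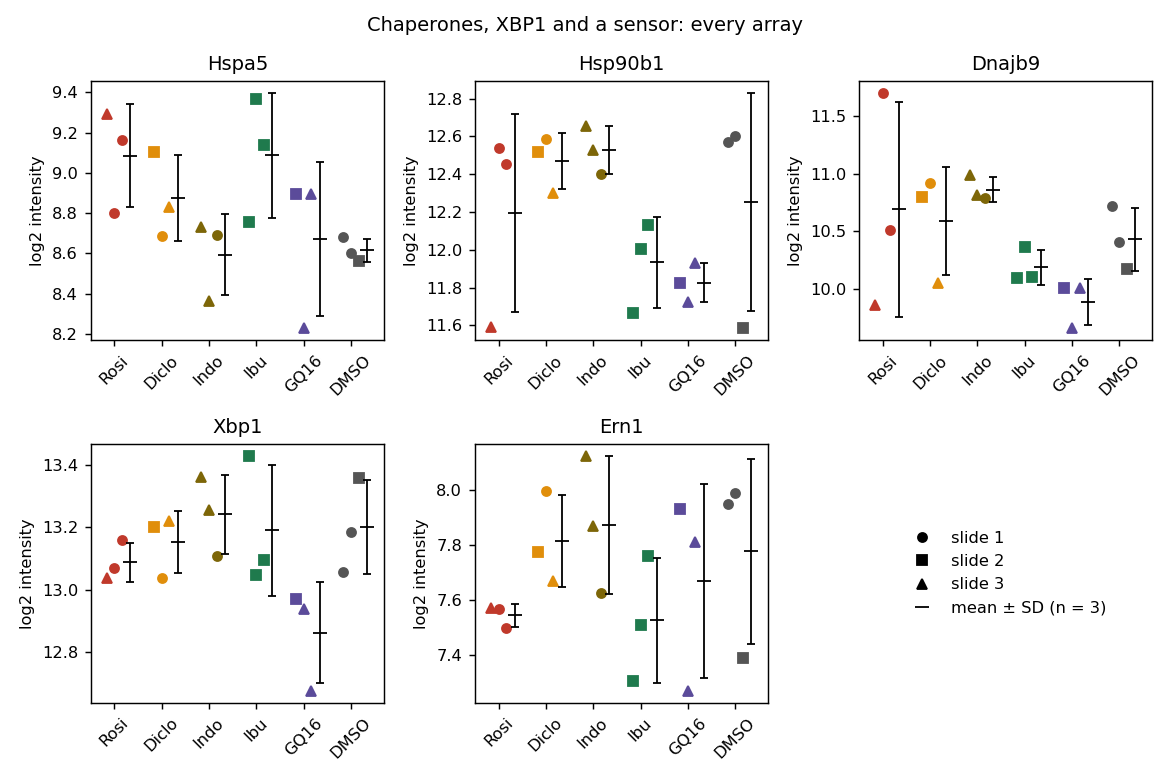
Log2 intensity (vertical axis) of Hspa5, Hsp90b1, Dnajb9, Xbp1 and Ern1 on every array, by treatment, with slide as marker shape and the mean ± SD as bars. Hsp90b1 is low in rosiglitazone replicate 1 and DMSO replicate 3, and the rosiglitazone values of Dnajb9 are the widest.

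The sensors and factors of the response did not pass the test in any comparison with DMSO. Xbp1, the factor whose message Ern1 splices, read 13.04, 13.07 and 13.16 under rosiglitazone, 13.20, 13.04 and 13.22 under diclofenac, 13.36, 13.26 and 13.11 under indomethacin, 13.43, 13.05 and 13.10 under ibuprofen, 12.97, 12.94 and 12.68 under GQ16, against 13.06, 13.19 and 13.36 under DMSO. The GQ16 arrays lay below every DMSO array, at a difference of -0.34 ± 0.12 (adjusted p = 0.142). Which forms of the Xbp1 message the probe reads was not examined. Ern1 read 7.57, 7.57 and 7.50 under rosiglitazone, 7.78, 7.999 and 7.67 under diclofenac, 8.13, 7.87 and 7.62 under indomethacin, 7.30, 7.51 and 7.76 under ibuprofen, 7.93, 7.27 and 7.81 under GQ16, against 7.95, 7.99 and 7.39 under DMSO, and its groups overlapped, with differences from DMSO between -0.25 (ibuprofen) and 0.10 (indomethacin).

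Eif2ak3, the PERK kinase, read 6.57, 6.43 and 6.44 under rosiglitazone, 6.66, 6.65 and 6.67 under diclofenac, 6.58, 6.60 and 6.46 under indomethacin, 6.48, 6.82 and 6.71 under ibuprofen, 6.59, 6.66 and 6.61 under GQ16, against 6.56, 6.72 and 6.85 under DMSO. The largest difference was -0.23 ± 0.10 with rosiglitazone (adjusted p = 0.121). Atf6 read 6.16, 6.25 and 6.09 under rosiglitazone, 6.30, 6.10 and 6.33 under diclofenac, 6.18, 6.09 and 6.17 under indomethacin, 6.12, 6.19 and 6.29 under ibuprofen, 5.91, 6.24 and 6.03 under GQ16, against 6.19, 6.18 and 6.29 under DMSO, close to the background level of 6.18, and was above it on 8 of 18 arrays. Its largest difference was -0.16 ± 0.09 with GQ16 (adjusted p = 0.378), and values so near the floor understate any change.

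The oxidoreductases form and rearrange disulfide bonds, and none of the 7 measured passed the test against DMSO on its brightest probe. P4hb, the founding protein disulfide isomerase, stayed within 0.16 log2 units of DMSO with every compound. Ero1a, which reoxidises these enzymes, stood 0.40 ± 0.17 above DMSO with ibuprofen (adjusted p = 0.157). Its second probe rose by 0.80 with ibuprofen (adjusted p = 0.00947), but the groups overlapped. On that probe DMSO replicate 3, the DMSO array on the ibuprofen slide, read 8.070 and ibuprofen replicate 1 read 8.062. The second probe was not fitted with slide as a block. Pdia6 read -0.63 ± 0.27 against DMSO with ibuprofen (adjusted p = 0.152) on its brightest probe and 0.12 on its second. Pdia3, the partner of the lectin chaperones, was at -0.36 ± 0.14 with ibuprofen (adjusted p = 0.111), Pdia5 at -0.40 ± 0.16 with indomethacin (adjusted p = 0.108) and Ero1b at -0.42 ± 0.19 with ibuprofen (adjusted p = 0.18). Pdia4 stayed within 0.10 of DMSO.

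The prolyl isomerase Ppib, the translocon subunit Sec61b and the remaining ERAD genes Edem2, Edem3, Syvn1 and Derl2 also missed the threshold. Ppib had the largest of these differences, 0.43 ± 0.18 with indomethacin (adjusted p = 0.132) and 0.41 ± 0.18 with diclofenac (adjusted p = 0.282). Syvn1 stood 0.29 ± 0.14 above DMSO with diclofenac (adjusted p = 0.376). Edem3 was above background on 6 of the 18 arrays.

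Counted by compound, rosiglitazone had 1 of 28 members higher than DMSO (Sdf2l1) and none lower, beside 8.06% of all genes higher and 10.1% lower. Ibuprofen had 2 higher (Calr and Edem1) and none lower, beside 4.25% and 5.2% of all genes. With diclofenac, indomethacin and GQ16 no member passed limma's test. At an unadjusted p under 0.05 there were 2 members higher and 0 lower with diclofenac, 3 and 2 with indomethacin, and 2 and 1 with GQ16. At that threshold the shares of all genes were 6.02% higher and 7.8% lower with diclofenac, 9.85% and 13.6% with indomethacin, and 8.95% and 8.11% with GQ16. At the adjusted threshold the shares of all genes called were 0.621% higher and 1.48% lower with diclofenac, 3.57% higher and 6.66% lower with indomethacin, and 0.685% higher and 0.749% lower with GQ16. Sdf2l1 passed with diclofenac under several other settings, such as a robust variance prior (adjusted p = 0.0494), and its adjusted p was 0.0072 without rosiglitazone replicate 1 and DMSO replicate 3 and 0.0692 with slide as a block. These comparisons share the DMSO arrays and are not independent.

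**Figure D4:**
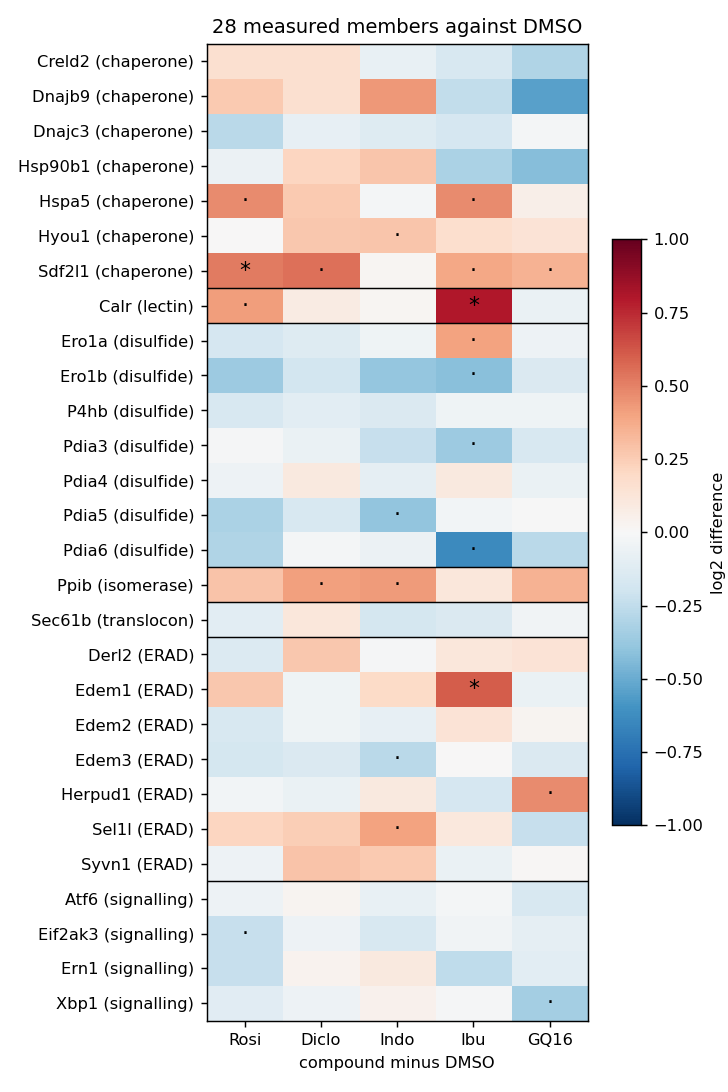
Log2 difference from DMSO (colour) for the 28 measured members in rows and the 5 compounds in columns; a star marks an adjusted p under 0.05 and a dot an unadjusted p under 0.05. The starred cells are Sdf2l1 with rosiglitazone and Calr and Edem1 with ibuprofen.

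The members' median difference from DMSO was -0.05 for rosiglitazone, 0.03 for diclofenac, -0.03 for indomethacin, -0.02 for ibuprofen and -0.06 for GQ16. Over all genes it lay between -0.00351 (ibuprofen) and 0.00922 (diclofenac). The 95% confidence interval of the difference had a median half-width of 0.32 log2 units. It lay within 2-fold of DMSO in either direction for 28 members with rosiglitazone, 28 with diclofenac, 27 with indomethacin, 26 with ibuprofen and 27 with GQ16. The exceptions were Dnajb9 with indomethacin and with GQ16, and Calr and Pdia6 with ibuprofen.

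Compounds were also set against each other in the 10 possible pairs, at the single doses used, which differ between compounds. By the F test over the 5 compounds 3 of 28 members differed (10.7%): Calr, Herpud1 and Edem1, beside 11.3% of all genes. In pairs, 7 members (25.0%) differed in at least 1, beside 21.5% of all genes, and 8 of 280 tests passed. Over all genes 3.76% of the tests passed. GQ16 was 1 of the 2 compounds in all 8 member calls and in 87.6% of the 4113 calls over all genes, so this pattern is not particular to the members. Against GQ16, 4 of 28 members (14.3%) were called with indomethacin, 3 (10.7%) with ibuprofen and 1 (3.57%) with rosiglitazone. Of all 10952 genes these pairs called 1282, 700 and 1619. Over all genes 448 were higher and 834 lower with indomethacin than with GQ16. With slide as a block the F test over the 5 compounds lost Edem1 (adjusted p = 0.0525) and gained Sdf2l1 (adjusted p = 0.0391).

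Against GQ16, indomethacin had higher Dnajb9, by 0.97 ± 0.29 (adjusted p = 0.0302), Hsp90b1, by 0.70 ± 0.22 (adjusted p = 0.0409), Sel1l, by 0.63 ± 0.15 (adjusted p = 0.00986), and Xbp1, by 0.38 ± 0.12 (adjusted p = 0.0384). The groups did not overlap in any of the 4, but these were called on the same arrays, so this adds no support. Slide 3 held arrays of both compounds, and within it the differences were 1.07, 0.76, 0.73 and 0.50 in the same gene order. With slide as a block that of Hsp90b1 missed the threshold, at 0.52 and an adjusted p of 0.0708. With no filter on dim probes Dnajb9 (adjusted p = 0.0933), Hsp90b1 (0.116) and Xbp1 (0.0808) missed it. With no intensity trend in the fit Hsp90b1 (adjusted p = 0.0662) and Xbp1 (0.052) missed it. Leaving out single indomethacin or GQ16 arrays ended the calls of Dnajb9, Hsp90b1 and Xbp1, with adjusted p of up to 0.119, 0.156 and 0.186. The Hsp90b1 call also ended without diclofenac replicate 1, an array of neither compound (adjusted p = 0.0508). That of Sel1l ended without GQ16 replicate 3 (adjusted p = 0.0511). With the mean of a gene's probes Sel1l gave 0.32 (adjusted p = 0.11) and Dnajb9 0.69 (adjusted p = 0.0726), and their second-brightest probes alone gave 0.17 (adjusted p = 0.716) and 0.40 (adjusted p = 0.238). In the fit on probe means the adjusted p of Hsp90b1, which has 1 probe, was 0.0554.

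Herpud1 was lower with ibuprofen than with GQ16, by a log2 difference of -0.64 ± 0.13 (adjusted p = 0.00413), and lower with rosiglitazone than with GQ16, by -0.49 ± 0.13 (adjusted p = 0.0105). The second of these was -0.53 with slide as a block (adjusted p = 0.0054), and the first was -0.44 (adjusted p = 0.0707). These calls rest on the brighter Herpud1 probe. With the mean of both probes rosiglitazone minus GQ16 was -0.21 (adjusted p = 0.224) and ibuprofen minus GQ16 was -0.42 (adjusted p = 0.0316). On the second probe alone they were 0.08, with the opposite sign, and -0.19 (adjusted p = 0.749 and 0.476). Calr was higher with ibuprofen than with GQ16 by 0.86 ± 0.18 (adjusted p = 0.00707), at 0.68 with slide as a block (adjusted p = 0.0472), and Edem1 by 0.67 ± 0.16 (adjusted p = 0.015), at 0.62 with the block (adjusted p = 0.0766). The rosiglitazone call of Herpud1 ended without rosiglitazone replicate 2 or GQ16 replicate 2, and that of Edem1 without ibuprofen replicate 1 or GQ16 replicate 2. No member differed between any pair that left out GQ16, where the largest estimate was -0.78 for Calr in indomethacin minus ibuprofen. At an unadjusted p under 0.05, rosiglitazone differed from diclofenac in 1 member (15.6% of all genes), from indomethacin in 5 (8.77%) and from ibuprofen in 5 (16.2%). Diclofenac differed at that level from indomethacin in 2 members (8.45% of all genes) and from ibuprofen in 7 (15.3%), and indomethacin from ibuprofen in 12 (17.9%). A missed threshold does not show that the compounds act alike.

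Members with and without an ERSE or ERSE-II in the promoter were both among those called. Of the 28 measured members, 9 held either form. The other 19 include Atf6 and Hyou1, which had no promoter window and so were not searched. With ibuprofen 1 of the 9 (Calr) and 1 of the other 19 (Edem1) were called. With rosiglitazone 0 of the 9 and 1 of the other 19 (Sdf2l1) were. The members with an element had a median difference from DMSO of -0.17 with ibuprofen, beside 0.0024 in the others, and of -0.05 with rosiglitazone, beside -0.11.

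A list of 22 genes linked to ATF4, the factor raised by Eif2ak3 and also by the other kinases of eIF2α, was set beside the members. With rosiglitazone 6 were higher and 2 lower, with diclofenac 2 higher, with indomethacin 5 higher and 1 lower, with ibuprofen 8 higher and with GQ16 1 higher. Of all genes, 8.06% were higher and 10.1% lower with rosiglitazone, 3.57% and 6.66% with indomethacin, and 4.25% and 5.2% with ibuprofen. These shares were 0.621% and 1.48% with diclofenac, and 0.685% and 0.749% with GQ16. The median difference of the 22 genes was 0.31 with rosiglitazone, 0.13 with diclofenac, 0.31 with indomethacin, 0.20 with ibuprofen and 0.22 with GQ16. Fgf21, a hormone gene that ATF4 and PPAR factors both raise, rose by 0.89 ± 0.17 with diclofenac (adjusted p = 0.00431), 2.06 ± 0.17 with indomethacin (adjusted p = 3.45e-08), 2.34 ± 0.17 with ibuprofen (adjusted p = 5.63e-09) and 0.75 ± 0.17 with GQ16 (adjusted p = 0.0318), beside 2.44 with rosiglitazone. Atf3, a stress-induced transcription factor, rose by 1.01 ± 0.18 with rosiglitazone and by 0.68, 0.66 and 0.62 with diclofenac, indomethacin and ibuprofen. Slc7a11, the cystine transporter, rose with rosiglitazone (0.55), indomethacin (0.94) and ibuprofen (0.45). Ddit3 (CHOP) and Ppp1r15a (GADD34), a transcription factor and a phosphatase subunit of this list, are named after their values were seen. They rose with ibuprofen, by 1.20 ± 0.18 (adjusted p = 0.00012) and 0.73 ± 0.14 (adjusted p = 0.00113), and with slide as a block these were 0.94 (adjusted p = 0.00284) and 0.75 (adjusted p = 0.00898). With the block the calls of Fgf21 with GQ16 (adjusted p = 0.106), Atf3 with diclofenac (0.051) and ibuprofen (0.135) and Slc7a11 with ibuprofen (0.236) were lost. Whether the members and the ATF4 genes differ in their response was not tested.

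**Figure D5:**
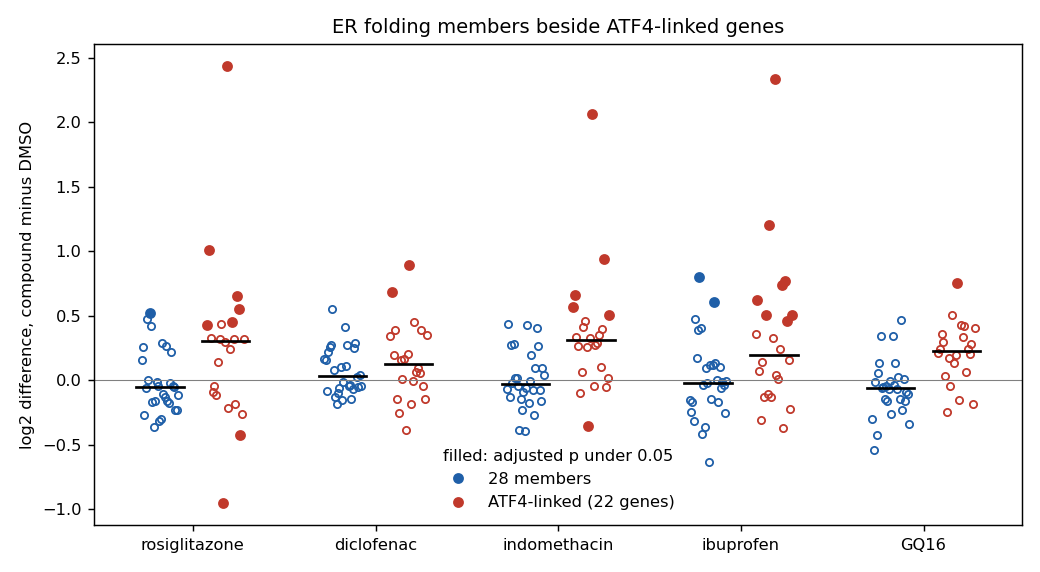
Log2 difference from DMSO (vertical axis) of the 28 members beside the 22 ATF4-linked genes, for each compound; filled points passed the test, and black lines are medians. The ATF4-linked genes reach further above 0, led by Fgf21, while the members lie around 0.

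The other genes of the ER are given by their counts. All counts in this paragraph stand beside the shares of all genes given with the ATF4 list, such as 8.06% higher and 10.1% lower with rosiglitazone. Of 24 other ER folding genes 1 was higher and 1 lower with rosiglitazone, where the list's median difference was -0.153. The higher was Qsox1, a sulfhydryl oxidase, at 0.69 ± 0.16 (adjusted p = 0.00301). With indomethacin 1 was higher and 2 lower, with ibuprofen 1 higher and 1 lower, and with diclofenac and GQ16 0 passed. Of 23 other ERAD genes 4 were higher and 3 lower with rosiglitazone, and 2 higher with ibuprofen. The pair higher with ibuprofen were the ubiquitin-conjugating enzymes Ube2g2, at 1.09 ± 0.22 (adjusted p = 0.00209), and Ube2j2, at 0.55 ± 0.15 (adjusted p = 0.0191). With slide as a block these were 0.67 (adjusted p = 0.0604) and 0.39 (adjusted p = 0.192). Of 31 genes of ER translocation and glycosylation 1 each passed with rosiglitazone (Alg2, lower), ibuprofen (Srp54a, higher) and GQ16 (Spcs2, higher). Of 24 genes of ER-to-Golgi transport 2 were higher and 1 lower with rosiglitazone, 1 higher and 1 lower with indomethacin and 1 lower with GQ16. Of 10 collagen-folding genes 4 were lower with rosiglitazone and 2 with indomethacin, among them Crtap at -0.53 ± 0.13 with rosiglitazone (adjusted p = 0.00611). Of the 9 fibroblast markers 7 were lower with rosiglitazone, 6 with ibuprofen, 5 with indomethacin and 1 each with diclofenac and GQ16. With ibuprofen 0 of the 10 collagen-folding genes were called, though at an unadjusted p under 0.05 in the same test 2 were higher and 4 lower. The median difference of the 10 was -0.14 with ibuprofen, -0.146 with indomethacin and -0.33 with rosiglitazone. The part of the fibroblast markers in the collagen result was not tested. Of 19 cytosolic chaperones 1 was higher (Hspd1) and 2 were lower (Cryab and Hspb1) with rosiglitazone, and 1 each was lower with indomethacin and ibuprofen.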

How the data were processed

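The values are log2 intensities that the authors deposited, 1 per probe and array, processed with GenomeStudio and lumi per the submitters' processing notes. Neither names a version or settings in the sources used here. The arrays' sorted values were equal within 0.00157, which shows quantile normalization; whether background was subtracted is unknown. The deposited non-normalized signals were left out, because their 36 value columns could not be matched to samples by name. Such values compress dim probes toward the floor and hide any change shared by most transcripts.

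Probes with 1 gene symbol in the platform annotation (34885 of 45281; 18 had several and 10378 none) were updated by Entrez identifier to RefSeq GRCm38.p6 names, which matched 34807 and renamed 29 symbols (Ero1l and Ero1lb are given as Ero1a and Ero1b). A probe was kept if above 6.18, the 95th percentile of 1523 probes for olfactory, trace amine and vomeronasal receptors, on at least 3 arrays. The brightest kept probe stood for each of 10952 genes.

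All 18 arrays entered 1 fit in limma 3.58.1 (R 4.3.3), with a mean per group, 12 residual and 11.9 prior degrees of freedom and an intensity trend. F tests over groups and two-sided moderated tests of each pair were adjusted over all genes by the Benjamini-Hochberg method, and a gene was called at an adjusted p under 0.05. The fit was tested on simulated data. Replicates did not pair by number. The number of arrays, 3 per group, limits the precision. Named members are all those measured, with every array's value for those called against DMSO or by the F test, for Ern1, Eif2ak3, Atf6, Xbp1, Hspa5 and Hsp90b1, and for Dnajb9, added after its values were seen; of each related list up to 3 genes are named, those called against DMSO most often. Members, lists, markers and the filter were chosen with earlier results of these data known. Slide, replicate block, single arrays, filters, probe choice, variance prior, scaling and the groups in the fit were varied.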

Additional observations from a re-analysis of the deposited data

How the results depend on the processing

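With the members counted as in the report (5 among the 6 groups, 1, 0, 0, 2 and 0 with rosiglitazone, diclofenac, indomethacin, ibuprofen and GQ16 against DMSO, 3 among the 5 compounds, 7 in pairs of compounds), 34 settings were tried. Of the called differences' values under them, 276 stayed past the threshold, 57 did not and 1 reversed: Herpud1, rosiglitazone minus GQ16, was 0.0818 on its second-brightest probe. Each probe on its own was otherwise counted only by member. Some settings could not change a difference itself, such as leaving out an array of a group not compared or shifting arrays to one median. The 276 are therefore not all separate checks. Of the counts of members, 60 moved beyond a set margin and 185 stayed within it. With slide as a block 2 members passed with rosiglitazone and 0 with ibuprofen; on slide 1 alone 2 passed with rosiglitazone, and on slide 2 alone 0 with ibuprofen. Without rosiglitazone replicate 1 and DMSO replicate 3 the counts were 2 for rosiglitazone, 1 for diclofenac, 5 for ibuprofen, 1 for GQ16 and 7 among the 5 compounds. With no filter on dim probes 2 members differed among the 6 groups and 4 in pairs. The mean of a gene's probes gave 2 for rosiglitazone, 1 for diclofenac and 5 among the 5 compounds, and each probe on its own gave 2 for rosiglitazone, 4 for ibuprofen and 5 among the 5 compounds. A stricter filter, no intensity trend, a robust variance prior and arrays shifted by the median deviation of all genes each gave 1 for diclofenac. With the compared groups alone in the fit the counts were 0 for rosiglitazone, 1 for diclofenac, 4 for indomethacin and 11 in pairs. Leaving out single arrays gave 3 to 7 members among the 6 groups, 0 to 2 with rosiglitazone, 0 to 1 with diclofenac, 0 to 1 with indomethacin, 0 to 4 with ibuprofen, 0 to 1 with GQ16, 1 to 7 among the 5 compounds and 3 to 9 in pairs. The cause of these moves was not tested, beyond the smaller number of arrays or genes in some settings.

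The replicate block gave the same counts as the fit without it, 5 members among the 6 groups and 7 in pairs; arrays with the same number did not deviate together (mean r of -0.00544 over 45 pairs, and 6 of 18 arrays correlated best with their own number). The second-brightest probe and the shift by the median deviation were chosen after seeing the data, the shift because the planned shift to one median changes nothing when arrays share a distribution. The background correction planned on the non-normalized signals was not run, for lack of a match of columns to samples. Dim members (Atf6, Edem3 and Hyou1) are limited by their signal over background.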
